A study of Homo sapiens with 24 samples.

Results

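The lysosome digests proteins, lipids and sugars delivered to it by endocytosis and autophagy, and its genes were followed here in the H3K4me3 profile of EndoC-βH3 cells, a human pancreatic beta cell line. The set was chosen by gene name and held 35 genes of the 20007 protein-coding genes annotated on chromosomes 1 to 22, X and Y, with GLB1 at its head, the gene of the acid beta-galactosidase whose activity is stained as senescence-associated beta-galactosidase. For each gene, the H3K4me3 regions of the deposited table that overlapped 2 kb either side of the start of any of its protein-coding transcripts were collected, and the region with the highest mean count stood for the promoter. Under that rule 34 of the 35 genes had a region, CTSZ being the exception, and no region stood for more than 1 of them.

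H3K4me3 had been profiled in 4 samples of non-senescent and 4 samples of senescent EndoC-βH3 cells by MINT-ChIP, a multiplexed assay in which chromatin of each sample is cut by MNase, barcoded, pooled and split over antibodies. The non-senescent cells were labelled as controls, and the senescent cells had been given 4-hydroxytamoxifen (4-OHT) for 3 weeks, at a dose written as 1 mM in the labels and as 1 μM in the study's methods. All 8 samples came from the same line, which carries a tamoxifen-inducible Cre that removes its immortalizing transgenes, are labelled wild type and took 500000 cells each, and the labels do not say whether replicates came from separate cultures. H3K27me3 and H3K9me3 had been profiled in 16 further samples that were not analysed here.

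The values below are the authors' mean normalized count of a region, taken over the non-senescent and senescent samples together. Such a mean has no replicate error and belongs to neither state, so no level could be assigned to non-senescent or senescent cells, the states were not compared here, and no difference between genes could be set against the spread between samples. Read depth per sample was unknown. Summed over all 97545 regions the mean normalized counts came to about 1470677 per sample. Wide regions collect more counts, so genes were compared by the mean normalized count per kb of region, and a percentile places a gene among the 14568 protein-coding genes (72.8%) that had a region. The identity of the cells was visible in the same table. Of 14 beta cell markers 13 had a region and 10 lay in the top 10% of whole-region counts, with 664.6 counts at PAX6 and 260.5 at PDX1, whereas INS and IAPP were low at 24.7 and 6.94 counts and MAFA had no region. Of 12 markers of alpha, delta, exocrine, fibroblast and blood cells 8 had a region and 0 lay in those 10%.

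H3K4me3 marks the nucleosomes around start sites of genes that are active or ready for transcription, and its height and width differ between promoters. Lysosomal genes share a regulatory circuit: TFEB, TFE3 and MITF, basic helix-loop-helix factors of the MiT/TFE family, enter the nucleus when the kinase mTORC1 is inactive and bind a short palindrome named the CLEAR element in the promoters of genes for hydrolases, the proton pump and autophagy. Autophagy itself begins with the ULK1 kinase and a lipid kinase complex that holds Beclin 1, proceeds through the conjugation of ATG8 proteins to a lipid, and ends when the closed vesicle fuses with a lysosome. Raised lysosomal content is a known mark of senescent cells.

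The promoter sequences are shown first, since the CLEAR element joins the genes that follow. The core of the element, TCACGTGA, which reads the same on both strands, was searched from 250 bases before to 50 bases after the MANE Select start, the start of the transcript that curators chose to represent a gene. It was found at 7 of the 35 genes, namely CTSA, HEXA, GAA, LAMP1, MCOLN1, ATP6V0D1 and ATP6V1H. The following stretches of hg38, from 5 of these genes, run 5′ to 3′ on the strand of the gene, with the core in capitals, and were limited to bases outside annotated exons or to 30 bases. For LAMP1 the capitals also mark the other E-boxes, CACGTG, the shorter word that the core contains.
GAA, chr17:80101461-80101532, plus strand: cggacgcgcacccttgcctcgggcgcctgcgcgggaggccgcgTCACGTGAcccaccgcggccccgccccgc
CTSA, chr20:45891298-45891327, plus strand: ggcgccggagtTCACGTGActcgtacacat
LAMP1, chr13:113297039-113297238, plus strand: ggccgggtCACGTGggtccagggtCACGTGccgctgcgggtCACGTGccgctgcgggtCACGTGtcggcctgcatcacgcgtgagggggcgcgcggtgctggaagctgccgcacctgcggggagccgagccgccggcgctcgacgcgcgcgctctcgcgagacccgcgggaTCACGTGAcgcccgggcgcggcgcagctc
MCOLN1, chr19:7522504-7522623, plus strand: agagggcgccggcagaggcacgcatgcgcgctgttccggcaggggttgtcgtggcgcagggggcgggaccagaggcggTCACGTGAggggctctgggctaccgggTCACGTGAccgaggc
ATP6V0D1, chr16:67481182-67481277, minus strand: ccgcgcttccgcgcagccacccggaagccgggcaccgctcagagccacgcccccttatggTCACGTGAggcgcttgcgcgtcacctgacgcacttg

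These 7 promoters held 10 cores, and all 10 began within the 100 bases before the start, the farthest at 77 bases before it, in GAA. In all promoters with a region, 65.8% of 292 cores began in those 100 bases. GAA, LAMP1 and MCOLN1 held 2 cores each, and 2 or more were found in 21 of 14568 promoters (0.144%). The MCOLN1 pair began 42 and 15 bases before the start and the GAA pair 77 and 32 bases before it, while the second LAMP1 core, which began 2 bases before the start, ran across it and is not part of the stretch above. LAMP1 also carried 4 E-boxes at 192, 176, 159 and 142 bases before the start, visible as a repeat at the left of its sequence. Its 6 E-boxes in 300 bases were matched or exceeded at 2 of the 14568 promoters, LAMP1 included, and no other gene of the set held more than 2.

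The share of promoters with the core was 20% for the 35 genes, 8.79% (8 of 91) for a second list of lysosome and autophagy genes and 1.83% (267 of 14568) for all promoters with a region. The CLEAR element was first described in promoters of lysosomal genes, so these shares are not an independent finding about the genes. The E-box, which overlaps the core wherever the core occurs, was found at 12 of the 35 (34.3%), at 17.6% of the second list and at 9.59% of all promoters. The 5 genes with an E-box and no core were CTSB, CTSD, NEU1, SGSH and ATG5. GLB1, TFEB, MITF and SQSTM1 held neither word within these 300 bases.

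Other promoter words were spread differently. The GC box, GGGCGG on either strand, was found at 29 of the 35 genes (82.9%), 75.8% of the second list and 72.2% of all promoters. The CCAAT box was found at 7 of 35 (20%) against 35.9% of all promoters, while the second list stood above them at 42.9% (39 of 91), so the low share did not extend to the other lysosome and autophagy genes. The ETS core CCGGAAGT (HEXA, ATG7), the CRE TGACGTCA (GABARAPL1, ATG5) and the TATA box word TATAAA (PSAP, ATP6V1A) were each found at 2 genes (5.71%), against 12.1%, 1.10% and 3.30% of the second list and 8.02%, 3.32% and 6.23% of all promoters. TATAAA lay 31 bases before the start at PSAP but 181 bases before it at ATP6V1A, and a match of letters does not show that the word is used. All words were searched on both strands and none of these 5 contains another. The plot of motif shares sets the gene lists side by side.

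**Figure D1:**
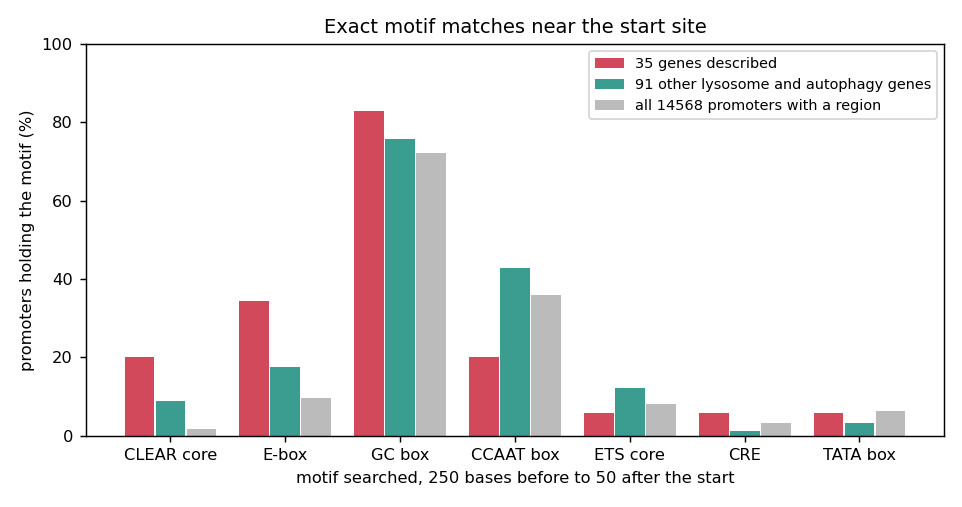
Percent of promoters (y axis) that hold each motif on the x axis, as bars for the 35 genes, the 91 other lysosome and autophagy genes and all 14568 promoters with an H3K4me3 region. The CLEAR core stands at 20%, 8.79% and 1.83%, and the CCAAT box is the motif for which the 35 genes lie farthest below all promoters, at 20% against 35.9%, with the 91 other genes at 42.9%.

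Across the 34 genes with a region the mean normalized count per kb had a median of 18.0, with the middle of the distribution between 14.6 and 24.3, and ran from 7.04 at CTSD to 49.0 at ATG16L1. All promoters with a region had a median of 19.0 per kb and quartiles of 12.4 and 26.8. Of the 34 genes, 15 lay above the median of all promoters, 6 (17.6%) lay in the top 20% and 4 (11.8%) in the bottom 20%. The top held ATG16L1, GABARAPL1, LAMP1, ATG7, HEXA and GAA, and the bottom CTSB, SGSH, SQSTM1 and CTSD. The regions were somewhat wide, with a median of 2941.5 bp against 2496.5 bp, and their whole-region counts had a median of 58.4 against 49.3, a median percentile of 56.9 where the per kb scale gave 46.0. The second list had a region at 86 of 91 genes and a median of 19.4 per kb.

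**Figure D2:**
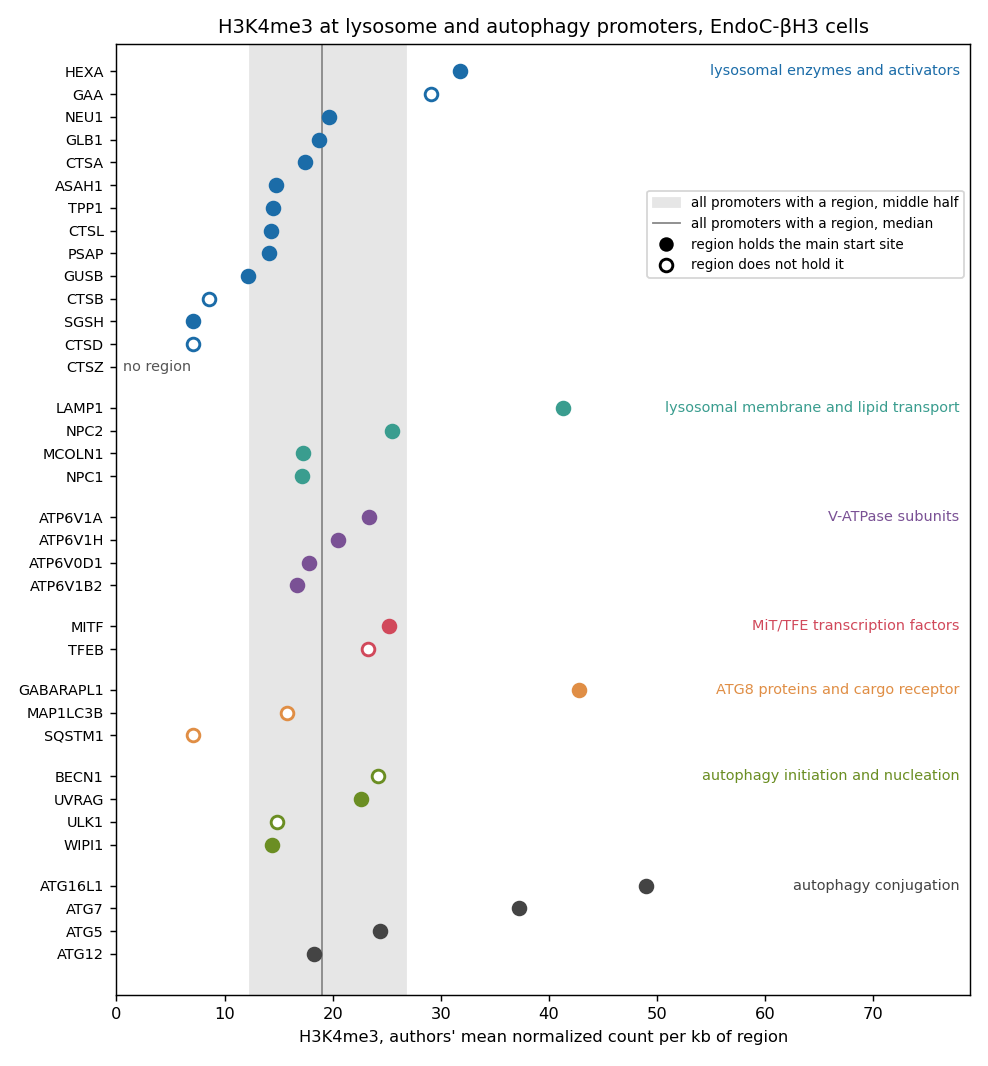
Authors' mean normalized H3K4me3 count per kb of region (x axis) for each of the 35 genes (y axis), grouped and coloured by role, with the middle 50% of all promoters as a grey band from 12.4 to 26.8 and their median of 19.0 as a line. Filled points have a region that holds the MANE Select start and open points do not; each point is 1 mean over samples, without an error bar. The conjugation genes reach 49.0 and 37.2, while 10 of the 13 enzyme genes with a region lie left of the line.

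GLB1 itself was an average promoter on this scale. Its region, chr3:33095294-33097884, had a mean normalized count of 48.6 over 2590 bp, or 18.8 per kb, which is percentile 49.1 per kb and 49.5 by whole-region count. The region held the MANE Select start at position 33097146 on the minus strand and reached 738 bases upstream and 1852 bases into the gene, of which 136 bases lay in exons and 1716 in introns. All 5 annotated GLB1 start sites lay within 2 kb of it. TMPPE, a neighbouring gene for a transmembrane protein with a phosphoesterase domain, starts in the same region, so its signal cannot be divided between the genes. Within the gene body 2 further regions lay away from start sites, the higher with 19.0 counts and 12.0 per kb, or 0.637 of the promoter level per kb. The 300 bases around the start were 70.7% GC and held 4 GC boxes at 108, 98, 77 and 25 bases before the start, of which 3 are in capitals in this exon-free stretch, shown because GLB1, the gene at the head of the set, held GC boxes and no E-box.
GLB1, chr3:33097203-33097266, minus strand: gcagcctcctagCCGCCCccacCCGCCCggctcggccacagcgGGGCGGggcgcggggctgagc

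The lysosomal enzymes and activators had the lowest median of the 7 roles. It was 14.5 per kb (percentile 32.4), and 3 of 13 lay above the median of all promoters, against 14 of 29 for the other enzymes of the second list, whose median was 18.5. The highest was HEXA, the alpha subunit of the hexosaminidase that degrades GM2 ganglioside, with 113.6 counts over 3571 bp (chr15:72373735-72377306), 31.8 per kb and percentile 85.6. GAA, the acid alpha-glucosidase that breaks down glycogen, followed with 32.3 counts over 1110 bp and 29.1 per kb. A second GAA region on the other side of its start had 30.4 counts over 563 bp, 53.9 per kb, and both GAA CLEAR cores lay between the pair.

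GLB1 is held in a complex with the sialidase NEU1 and with CTSA, the protective protein cathepsin A. These 3 partners had 18.8, 19.6 and 17.4 per kb, at percentiles 49.1, 52.2 and 43.5. All 3 thus lay near the median of all promoters, 19.0, and a link of their levels to the complex was not tested. The CTSA region, chr20:45889820-45893133, had 57.7 counts over 3313 bp and holds the start of NEURL2 as well, and the NEU1 region had 60.6 counts over 3089 bp with the start of SLC44A4 within 2 kb. CTSA carries a CLEAR core, NEU1 an E-box, and GLB1 neither.

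Several enzymes that serve as lysosomal markers were below these. ASAH1, the acid ceramidase, had 59.1 counts over 4004 bp and 14.7 per kb. TPP1, a tripeptidyl peptidase, had 36.4 counts over 2506 bp and 14.5 per kb. CTSL, the cysteine protease cathepsin L, had 26.6 counts over 1862 bp and 14.3 per kb, and PSAP, the precursor of the saposins that present lipids to hydrolases, had 49.1 counts over 3486 bp and 14.1 per kb. These 4 lay within 14.1 to 14.7 per kb although their whole-region counts ran from 26.6 to 59.1. GUSB, the beta-glucuronidase, had 29.4 counts over 2416 bp and 12.2 per kb.

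The cathepsins B and D and the sulfatase SGSH had the weakest promoters of the enzyme genes with a region. CTSB had 4.66 counts over 545 bp and 8.56 per kb, CTSD had 8.22 counts over 1167 bp (chr11:1762391-1763558) and 7.04 per kb, and SGSH, which removes sulfate from heparan sulfate, had 7.35 counts over 1037 bp (chr17:80219298-80220335) and 7.08 per kb. SLC26A11 starts inside the SGSH region. Each of these genes also had a second, upstream region of lower count that the rule did not take. It had 2.58 counts (5.16 per kb) at CTSB, 5.96 counts (11.0 per kb) at CTSD and 3.45 counts (6.90 per kb) at SGSH. The low rank of CTSD per kb thus depends on which of its regions is taken. CTSZ, the carboxypeptidase cathepsin Z, had no region within 2 kb of its 9 protein-coding start sites, and the nearest lay 4253 bases away with 2.97 counts over 500 bp. A gene without a region is one without a listed peak, and its signal may lie anywhere below what the peak caller accepted.

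CTSB and CTSD had regions on either side of the start rather than over it, as had 4 other genes. At CTSB regions lay 316 bases upstream and 334 bases downstream of the MANE Select start, and none lay over the start. The same arrangement was seen at CTSD (262 and 369 bases), GAA (259 and 271), SQSTM1 (323 and 472), MAP1LC3B (500 and 584) and TFEB (56 and 1254), so that 6 of the 35 starts lay in a gap of 530 to 1310 bases between a pair of regions. The arrangement is not particular to the set, since it was seen at 1867 of the 14068 protein-coding genes with a region within 2 kb of that start. SGSH came close to it, since its region reached only 2 bases upstream of the start and a second region began 633 bases upstream. The 300 bases around the start were 81.7% GC at CTSB, 81.3% at GAA, 78.7% at SGSH, 77.3% at CTSD, 75.7% at MAP1LC3B and 73.0% at SQSTM1, against a median of 69% for the 35 genes. TFEB was the exception at 63.0%. The region-free stretch of CTSD shows what such a start looks like, with its E-box in capitals.
CTSD, chr11:1763965-1764047, minus strand: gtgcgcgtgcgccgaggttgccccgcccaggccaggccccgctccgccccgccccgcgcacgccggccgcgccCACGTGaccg

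The region that stood for the gene held the MANE Select start at 26 of the 34 genes (76.5%), against 66.2% of all promoters with a region. The 9 genes without such a region, CTSZ included, had a median promoter GC of 77.3%, against 67.3% for the 26. Over all protein-coding genes the share of starts in a gap moved with promoter GC in the same way. All genes were divided into 5 groups of nearly equal size by promoter GC. Among those with a region within 2 kb of the MANE Select start, the start lay between a pair of regions at 2.06%, 1.82%, 4.62%, 12.1% and 36.9% from the lowest to the highest group, and at 1867 of 14068 genes in all, with a median gap of 730 bases. The top group, with a promoter GC of 73.3% or more, held 10 of the 35 genes, 9 of them with a region. For 4 of these 9 the region held the start: SGSH, LAMP1, ATP6V1B2 and WIPI1. Over all protein-coding genes of that group with a region, the chosen region held the start at 37.8%. The part of base composition in the weak level of these promoters was not tested. In the top group the 9 genes with a region had a median of 14.9 per kb, against 16.6 for all promoters of that group. LAMP1 at 75% GC and 41.3 per kb, and GAA at 81.3% and 29.1, were the highest of these genes. The others of the group lay below the median of all promoters, 19.0. Spearman's rho between promoter GC and the level per kb was -0.40 over the 34 genes and -0.10 over all 14568, as a description over promoters of the same libraries.

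**Figure D3:**
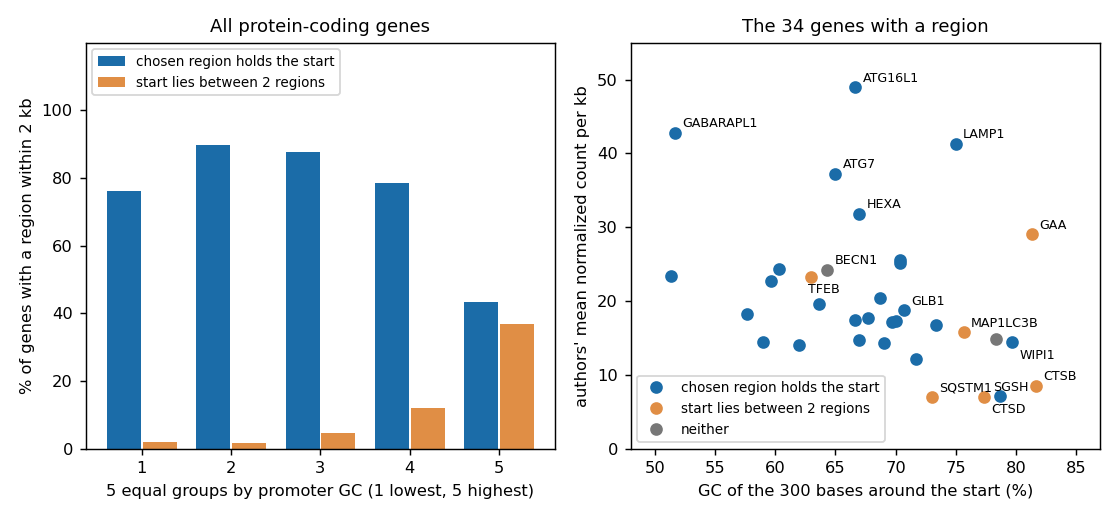
Left, percent of all protein-coding genes with a region within 2 kb of the MANE Select start (y axis) whose chosen region holds that start (blue) or whose start lies between 2 regions (orange), in 5 groups of rising promoter GC (x axis). Right, GC of the 300 bases around the start in percent (x axis) and authors' mean normalized count per kb (y axis) of the 34 genes, coloured the same way, with BECN1 and ULK1 in grey for neither. The orange bars stand at 2.06% in the lowest and 36.9% in the highest group, and 5 of the 6 orange genes lie at 73.0% GC or above.

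**Figure D4:**
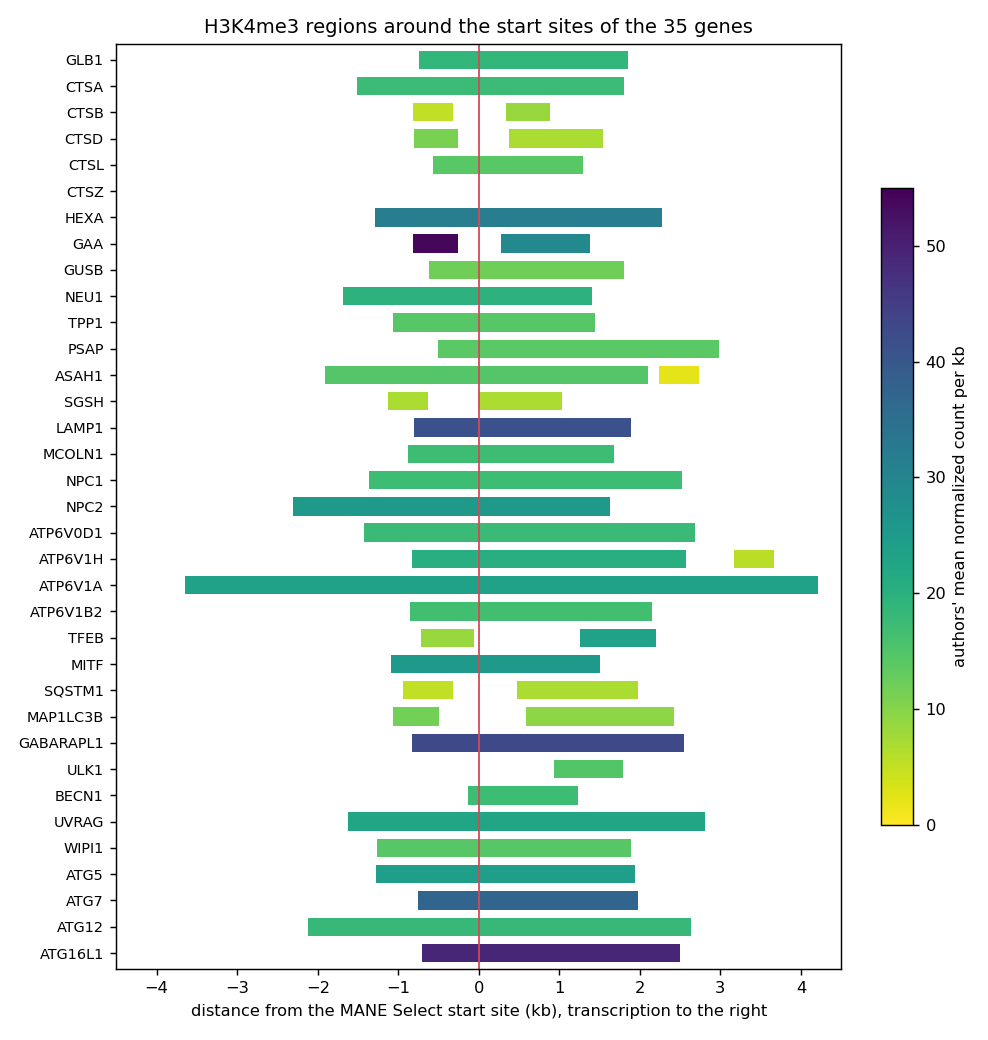
H3K4me3 regions of the 35 genes (y axis) by distance in kb from the MANE Select start (x axis, red line, transcription to the right), coloured by authors' mean normalized count per kb; regions farther than 4.5 kb are not drawn. Bars run across the line at most genes, leave a gap around it at CTSB, CTSD, GAA, TFEB, SQSTM1 and MAP1LC3B, and are missing at CTSZ.

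Lysosomal membrane and lipid transport genes had a median of 21.4 per kb. LAMP1, a heavily glycosylated protein that lines the lysosomal membrane, had 111.2 counts over 2689 bp (chr13:113296434-113299123), 41.3 per kb and percentile 95.4, the third highest of the 34 genes. The region reached 805 bases upstream and 1884 downstream and covers the row of E-boxes and both CLEAR cores described above. NPC2, the soluble cholesterol carrier, had 100.4 counts over 3937 bp and 25.5 per kb in a region that also holds the start of ISCA2. Its membrane partner NPC1 had 66.8 counts over 3886 bp and 17.2 per kb, and the calcium channel MCOLN1, with its pair of CLEAR cores, had 44.1 counts over 2557 bp and 17.3 per kb. Thus the 3 genes with a pair of cores, LAMP1, GAA and MCOLN1, had 41.3, 29.1 and 17.3 per kb.

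The V-ATPase pumps protons into the lysosome, and its subunits were the most even of the roles with 3 or more genes, from 16.7 to 23.4 per kb with a median of 19.1, while the 12 other subunits and accessory proteins with a region ran from 8.92 to 46.7 around the same median of 19.1. ATP6V1A, the catalytic A subunit, had the widest and largest region of the 34 genes, with 183.8 counts over 7860 bp (chr3:113743381-113751241), and its whole-region percentile of 96.4 became 65.0 per kb. The start of NAA50, an N-terminal acetyltransferase, lies in that region. ATP6V1H had 69.6 counts over 3401 bp and 20.5 per kb, ATP6V0D1 had 72.9 counts over 4100 bp and 17.8 per kb, and ATP6V1B2 had 50.2 counts over 3002 bp and 16.7 per kb. ATP6V1H and ATP6V0D1 carry the CLEAR core and ATP6V1A and ATP6V1B2 do not, and the levels of the pairs interleave.

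Over all 34 genes those with the core had a median of 20.5 per kb (17.3 to 41.3, 7 genes) and those without it 17.2 (7.04 to 49.0, 27 genes), and the ranges overlapped. Over all promoters the medians were 20.3 for 267 with the core and 19.0 for the other 14301. The promoter GC of the genes with and without the core was alike, with medians of 68.7% and 69.0%.

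Of the factors that bind the core, MITF and TFEB had regions at more than 1 place. They were among 13 of the 34 genes (38.2%) with 2 or more regions near their start sites. The share was 37.2% for all promoters with a region. The strongest MITF region, chr3:69738372-69740973, lay over the MANE Select start, with 65.6 counts over 2601 bp and 25.2 per kb. Of its 15 annotated protein-coding start sites, which spread over a gene of 228881 bp, 10 had a region within 2 kb, and the other regions were weak. The region at 25231 bases from the MANE Select start had 7.41 counts and 6.84 per kb, and the one at 126280 bases had 13.0 counts and 7.66 per kb. TFEB had 22 counts over 946 bp (chr6:41733408-41734354), 23.3 per kb, in an intron 1254 bases downstream of the MANE Select start, where other TFEB transcripts begin, and 5.58 counts at 8.42 per kb just upstream of it. TFE3, of the second list, had 8.48 per kb, and TFEC, the remaining family member, had no region.

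The ATG8 proteins, which are joined to the autophagosome membrane, and the receptor p62 spanned nearly the whole range. GABARAPL1 had 144.6 counts over 3378 bp (chr12:10212052-10215430), 42.8 per kb and percentile 96.0, the second highest. MAP1LC3B, which encodes the LC3B protein used to count autophagosomes, was represented by a region of 23.8 counts and 15.8 per kb that lies 9186 bases from its MANE Select start, near a start of a different MAP1LC3B transcript and within 2 kb of FBXO31. The pair of regions at its MANE Select start had 6.56 counts (11.6 per kb) upstream and 17.4 counts (9.44 per kb) downstream. SQSTM1, the cargo receptor p62, had 10.6 counts over 1509 bp (chr5:179821377-179822886) and 7.04 per kb. The second list gave 7 further ATG8 and receptor genes with a median of 24.7 per kb, among them MAP1LC3A with the highest level of all 86, 68.8 per kb. GABARAPL1, ATG5 and, in the second list, MAP1LC3A were the genes with a CRE, the word bound by CREB and ATF factors. The CRE is in capitals in the stretches of GABARAPL1 and ATG5.
GABARAPL1, chr12:10212836-10212865, plus strand: ggctcgcggggTGACGTCAcagcccgacgc
ATG5, chr6:106325792-106325880, minus strand: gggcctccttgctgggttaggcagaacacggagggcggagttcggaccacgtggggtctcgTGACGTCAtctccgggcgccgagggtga

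Autophagy initiation and nucleation genes had a median of 18.8 per kb. UVRAG, a partner of Beclin 1, had 100.5 counts over 4436 bp and 22.7 per kb, and WIPI1, which reads the phosphoinositide made by the lipid kinase, had 45.5 counts over 3154 bp and 14.4 per kb. ULK1, the kinase that starts the process, had a single region of 12.7 counts over 855 bp (chr12:131895556-131896411), 14.9 per kb, which began 934 bases downstream of its only annotated start, at a promoter GC of 78.3%. For BECN1 the rule took a region 7968 bases from the MANE Select start, with 69.8 counts and 24.2 per kb. It holds the start of PSME3, a proteasome activator, and starts of other BECN1 transcripts. The region over the MANE Select start of BECN1 had 23.5 counts over 1361 bp and 17.3 per kb, which is the value closer to the gene itself.

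The conjugation genes had the highest median of the 7 roles, 30.8 per kb (percentile 80.1), while the 7 other conjugation genes of the second list had 17.5. ATG16L1, which directs lipidation of ATG8 proteins to the membrane, had 156.9 counts over 3202 bp (chr2:233250965-233254167), 49.0 per kb and percentile 98.0. ATG7, the E1-like enzyme of the pathway, had 101.7 counts over 2733 bp and 37.2 per kb. ATG5 had 78.4 counts over 3215 bp and 24.4 per kb, and its partner ATG12 had 86.7 counts over 4754 bp and 18.2 per kb in a region that also holds the start of AP3S1. Since ATG5 and ATG12 are joined to each other and then bind ATG16L1, the members of this 1 complex ran from 18.2 to 49.0 per kb.

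Regions inside genes and away from start sites were found in 10 of the 35 genes, 41 regions in all, most of them in long genes. The share over all protein-coding genes was not computed, so these counts do not show whether the set has many or few. ATG7, of 285357 bp, held 7, the one of highest count with 36.0 counts and 25.8 per kb, and ATG5, of 280369 bp, held 7, the one of highest count with 24.1 counts and 21.0 per kb. Those values came to 0.693 and 0.859 of the promoter level per kb. The region of highest count within MITF, which held 4, had 16.1 per kb, that within UVRAG, which held 6, had 10.9, and that within WIPI1, which held 2, had 10.4. ATP6V1H held 9, and its highest had 4.09 counts and 4.48 per kb.

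Where a region held the MANE Select start it usually reached farther into the gene than away from it. The 26 genes had a median reach of 1076.5 bases upstream and 1961 bases downstream, and 24 of them (92.3%) reached farther downstream, the exceptions being NEU1 (1688 upstream and 1401 downstream) and NPC2 (2313 and 1624), whose region holds the start of ISCA2. For all 9640 such promoters the medians were 1109 and 1681 bases, and 71.8% reached farther downstream. Another protein-coding gene also starts in the region of 7 of the 34 genes (20.6%), GLB1, CTSA, SGSH, NPC2, ATP6V1A, BECN1 and ATG12, a share close to the 21.5% of all promoters with a region.

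Compared with promoters of similar count, the genes had regions that were wider in 3 of 5 groups and narrower in the other two. All promoters with a region were divided into 5 equal groups by whole-region mean count, which held 5, 6, 8, 7 and 8 of the genes. In the lowest group, of CTSB, CTSD, SGSH, SQSTM1 and ULK1, the genes had a median width of 1037 bp against 760.5 bp and a median of 7.08 against 8.02 per kb. In the second group they had 1686 against 1858 bp and 15.1 against 14.4 per kb. In the third group, which holds GLB1, they had 3121.5 against 2585 bp and 17.0 against 18.9 per kb, and in the fourth 3401 against 3210 bp and 20.5 against 24.4 per kb. In the highest group, which holds HEXA, LAMP1, NPC2, ATP6V1A, GABARAPL1, UVRAG, ATG7 and ATG16L1, they had 3474.5 against 4513 bp and 34.5 against 30.8 per kb. All but ATP6V1A of these 8 were narrower than the median of 4513 bp. Since the groups were cut by count and the level is count over width, wider regions have lower levels within a group by construction. Width and level are therefore not separate observations here. Whether these differences exceed sample error could not be tested. Across the 34 genes Spearman's rho of width and level per kb was 0.38, against 0.47 over all 14568.

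**Figure D5:**
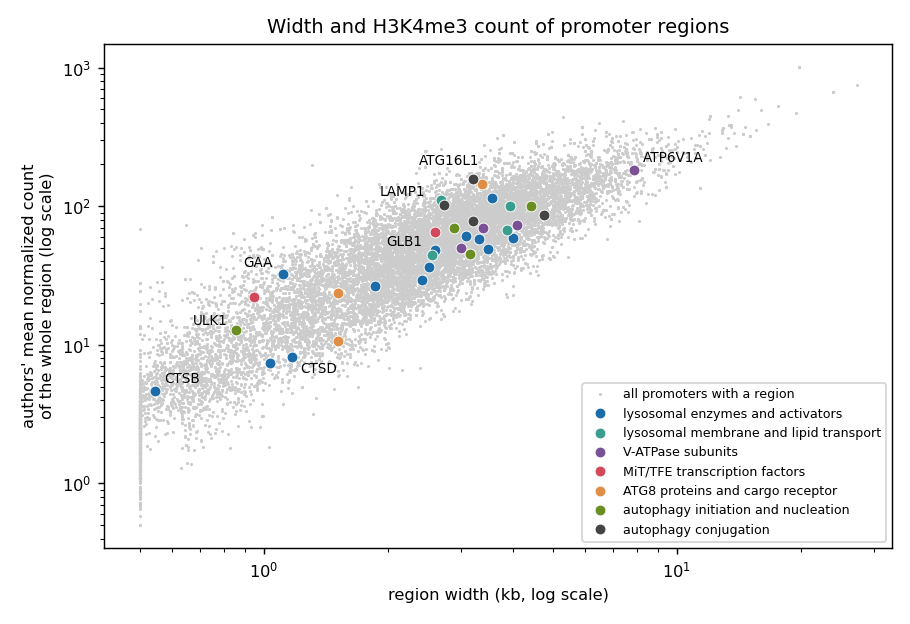
Region width in kb (x axis, log scale) and authors' mean normalized count of the whole region (y axis, log scale) for all promoters with a region (grey) and for the genes by role (coloured points). Each point is 1 region without an error bar; ATG16L1 and LAMP1 stand in the upper part of the cloud for their width, ATP6V1A at the wide end, and CTSB near the narrow end.

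In the second list the levels at the ends of the range were those of MAP1LC3A (68.8 per kb), M6PR, the cation-dependent mannose 6-phosphate receptor (49.7), and CTSC, the dipeptidyl peptidase cathepsin C (47.2), and those of CTSH (5.64), TPCN2, an endolysosomal ion channel (6.67), and TFE3 (8.48). No region was listed for CTSF, CTSK, CTSS, TCIRG1 and TFEC. CTSK, CTSS and TCIRG1 are best known from osteoclasts and immune cells.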

How the data were processed

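H3K4me3 MINT-ChIP data of EndoC-βH3 cells, 4 samples per state as labelled, were used. Alignment by the authors was to hg38 (Bowtie2, then samtools). Peaks came from HOMER and the authors' test of senescence from DESeq2. The merging of peaks, the counting and tool versions are not given in the sources used here. The deposited table holds, for each region, its coordinates, a mean signal (the authors' mean over samples of normalized read counts) and the authors' own comparison of the states (log2 fold change, its standard error, test statistic and p-values). The comparison columns were not used, and no column holds values of single samples, so no test between the states was made. Since the mean pools both states, no SD is given and read depth per sample is unknown.

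Start sites came from GENCODE release 44 (Python 3.11.15). Region width is the end minus the start as deposited; whether starts count from 0 or 1 is not stated. The level per kb is the mean normalized count times 1000 divided by the width. A percentile is the share of promoters with a lower value, with equal values, the gene itself included, split evenly between lower and higher. Promoter GC and motifs were taken from the 300 bases from 250 before to 50 after the MANE Select start (the canonical start where there is none). Motifs were matched letter by letter on both strands. Sequences were read from hg38, and for 21 of the 26 genes of the set present in a RefSeq promoter table that table's window was the same 300 bases. The choice of regions and the motif search were checked on made-up data (500 of 500 genes and 200 of 200 planted motifs recovered). Genes, roles, the second list of 91 genes and the markers were chosen with earlier results of these data known. Every gene of the set is named. Of the second list, the 3 highest and 3 lowest per kb and those without a region are named, beside the one with a CRE, chosen after its values were seen, and genes that share a region with the set. Some items are not reported here. Alternatives changed the window, the start sites, the choice of region, the scale, a floor of 10 counts and the motif window.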

Additional observations from a re-analysis of the deposited data

How the results depend on the processing

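Under 15 alternative settings, 2 of them chosen after seeing the data, 47 values were computed again. A count, level or width was taken as close within 1.5 times, a percentile within 10 points and a share within its 95% Wilson interval; 43 were close. The genes with a region numbered 33 to 35, 33 with start sites within 500 bases and 35 with the start sites of all transcripts (CTSZ then had one), and the median per kb stayed between 17.3 and 18.5. The median percentile was 46.0 per kb, 40.0 among regions that hold the MANE Select start and 56.9 by whole-region count instead of per kb, which puts the set on the other side of the middle of all promoters. GLB1 lay between percentile 41.1, with promoters of at least 10 counts, and 54.6, with all its and other genes' regions summed. The share of all promoters with the CLEAR core was 1.45% over all protein-coding genes, 2.49% with 500 bases on either side and 9.59% for the E-box, and that of the 35 genes 25.7% and 34.3% in the last 2 of these. Leaving out a replicate was not possible, since the deposited mean pools the samples. No paired analysis was possible because no column holds a single sample. What depth limits could not be measured, since no count of a single sample is given.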
